A study of Arabidopsis thaliana with 6 samples.

Results

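YLS9 (AT2G35980) and AT1G65690 are 2 Arabidopsis genes of the late embryogenesis abundant hydroxyproline-rich glycoprotein family, whose members are also called NDR1/HIN1-like, or NHL, proteins. They were followed across 6 Affymetrix ATH1 arrays, which held 13356 genes with an annotated probe set of their own, AT1G65690 among them. Both were chosen by their measured values on these arrays: AT1G65690 because its response to induction was largest at 3 h and small in leaves, YLS9 because its response came later and was also seen in leaves. Every difference between estradiol-treated and mock-treated plants given for them is therefore a description, without a test.

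The plants were GRF9-IOE plants, which carry the coding sequence of the transcription factor GROWTH-REGULATING FACTOR 9 under an estradiol-inducible promoter in the accession Col-0, so that the mock-treated plants carry the transgene as well. Two-week-old seedlings from MS plates received 10 µM estradiol (EST) or the ethanol solvent for 3 h or 4 h, and detached mature leaves of soil-grown plants, aged 40 days by the labels and less by the methods, received the same for 6 h. Labels and methods also differ in the ethanol concentration of the controls. There was 1 array for each of the 6 conditions and hence no replicate, and how many plants each RNA held is not given in the sources used here. No wild-type or empty-vector plants were given EST on these arrays, so an effect of the inducer itself cannot be told apart from that of GRF9. Leaves differed from seedlings at once in tissue, age, growth medium, detachment, duration and, by the labels, day length, and these cannot be told apart either.

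NDR1, after which the family is named, is a plasma membrane protein of Arabidopsis that several resistance proteins need to recognise bacterial pathogens, and HIN1 was found in tobacco as a gene that the bacterial elicitor harpin induces. YLS9 carries the names YELLOW-LEAF-SPECIFIC GENE 9, for its transcript in ageing leaves, and NHL10, under which it is widely used as a marker of the response to the flagellin peptide flg22. For AT1G65690 the annotation used here gives the family and no gene name.

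YLS9 lies on chromosome 2 at 15110492 to 15111539 and AT1G65690 on chromosome 1 at 24431417 to 24433165 in the TAIR10.1 annotation. The probe set of AT1G65690, 262930_at, is paired with this gene alone. The annotation of the array did not list the probe set of YLS9, 263948_at. It was identified because its 3 differences, and those of no other probe set, equal the supplementary table's entries for AT2G35980 within 2e-05.

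Values are log2 signals, in which a difference of 1 is a doubling. The lowest possible value, 2.15, was the same on each array, and 28.4% to 30.0% of probe sets lay within 0.05 of it. As a yardstick served the difference between the 4 h and the 3 h array of mock seedlings, which share tissue and treatment. It lay between −0.48 and 0.61 for the central 95% of genes, taken over all levels of signal. Genes near the minimum on both arrays hardly differ, so the range is narrower than it would be without them. Signals of different probe sets are not set against each other.

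In mock seedlings, YLS9 was close to the bottom of the scale, with log2 signals of 3.06 at 3 h and 2.96 at 4 h. After EST it had 3.36 at 3 h and 4.58 at 4 h. Detached leaves gave 5.75 without and 7.29 with EST. The lowest 3 of its 6 signals, those of both mock seedling arrays and of EST at 3 h, lay within the yardstick of one another, and the order above them was EST at 4 h, mock leaves and EST leaves.

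The EST signal of YLS9 thus exceeded its mock by 0.30 at 3 h, which is 1.23-fold, by 1.62 or 3.07-fold at 4 h, and by 1.53 or 2.90-fold in leaves at 6 h. Between the 2 seedling time points the difference grew by 1.31 on the log2 scale. Nearly all of this came from the EST arrays, which differed by 1.22 between 4 h and 3 h, whereas the mock arrays differed by −0.10. From 4 h in seedlings to 6 h in leaves, the size of the difference moved by −0.08. With both seedling mock signals less than 1 log2 unit above the array minimum (0.91 at 3 h and 0.81 at 4 h), the fold at 4 h rests on a weak baseline, while the leaf mock signal lay 3.60 above it.

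AT1G65690 had log2 signals of 4.78 at 3 h and 5.16 at 4 h in mock seedlings. After EST its signal was 7.75 at 3 h and 6.86 at 4 h. In detached leaves it was 8.41 without and 8.69 with EST. Its 2 mock seedling signals were the lowest and differed by 0.38, within the yardstick, followed by EST at 4 h and EST at 3 h, and the leaf arrays were the highest and lay 0.29 apart.

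The EST signal of AT1G65690 was 2.96 above mock at 3 h, which is 7.79-fold, 1.70 or 3.24-fold at 4 h, and 0.29 or 1.22-fold in leaves. Among the 13356 genes, 4 had a larger difference at 3 h, 17 at 4 h and 1718 in leaves. For YLS9 the corresponding numbers were 1347 genes at 3 h, 18 at 4 h and 19 in leaves. The difference of AT1G65690 was 1.27 smaller at 4 h than at 3 h, of which 0.89 came from the lower EST signal at 4 h and 0.38 from the higher mock signal.

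**Figure D1:**
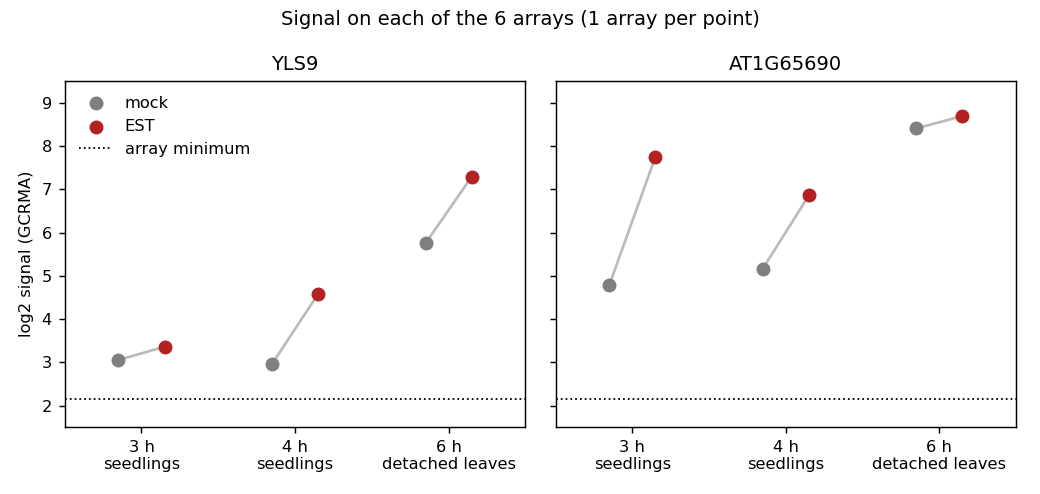
Log2 signal (vertical axis) of YLS9 (left) and AT1G65690 (right) on each of the 6 arrays, in grey for mock and in red for EST, with the array minimum of 2.15 as a dotted line and 1 array per point. YLS9 separates from mock at 4 h in seedlings and at 6 h in leaves, whereas AT1G65690 does so at 3 h and 4 h in seedlings and has leaf signals of 8.41 and 8.69, above all of its seedling signals.

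Set side by side, the EST minus mock difference of YLS9 was 2.66 log2 units below that of AT1G65690 at 3 h, with values of 0.30 and 2.96. At 4 h the values were 1.62 and 1.70, less than 0.1 apart. In leaves the order was the other way round, with 1.53 for YLS9 and 0.29 for AT1G65690, and YLS9 exceeded it by 1.25.

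In leaves without EST, both genes already had a higher signal than in mock seedlings. YLS9 was 2.69 log2 units higher in mock leaves than in mock seedlings of 3 h, a 6.47-fold difference, and 2.79 higher than in those of 4 h. AT1G65690 was 3.62 higher than at 3 h, a 12.3-fold difference, and 3.24 higher than at 4 h. For YLS9, 392 of the 13356 genes had a larger excess in mock leaves over mock seedlings of 3 h, and for AT1G65690, 181 had one. The mock leaf signal of AT1G65690 was also higher than its seedling signals under EST, by 0.66 (3 h) and 1.55 (4 h), and for YLS9 this excess was 2.39 and 1.17. Seedlings contain roots and detached leaves do not. The root β-glucosidase PYK10 had signals of 12.1 to 12.3 on the 4 seedling arrays and 2.17 on both leaf arrays. Of 6 root markers 4 were measured: PER45 ranged from 3.10 to 6.35 in seedlings and from 2.15 to 2.17 in leaves, PRX57 was at or near the minimum on all arrays except EST at 4 h (2.63), and PER27 was at the minimum throughout. Rubisco activase (RCA), the only measured one of 4 green leaf markers, had 13.4 to 13.7 in seedlings and 13.6 to 14.1 in leaves. Between EST and mock seedlings, PER45 differed by −1.90 after 3 h and by 1.94 after 4 h while PYK10 differed by 0.20 and −0.01, and the part of root content in the seedling differences of YLS9 and AT1G65690 was not tested. Fewer cells that express a gene and less of its RNA per cell cannot be told apart in such samples.

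The number of genes that reached 2-fold is the background for these values. After 3 h of EST, the signal of 151 genes, or 1.13% of the 13356, was 2-fold or more above mock, and that of 0.389% was 2-fold or more below it. At 4 h the shares were 0.614% higher and 0.18% lower, and in leaves at 6 h they were 1.02% higher and 1.14% lower. The seedling shares depended on the mock array: when each EST array was set against the mock array of the other time point, 0.674% of genes (90) were higher at 3 h and 1.24% (165) at 4 h, the opposite order. AT1G65690 was past 2-fold at 3 h and 4 h, as were 44 genes in all, or 0.329%. YLS9 was past 2-fold at 4 h and at 6 h, as were 5 of the 13356 genes, or 0.0374%. The rule that chose the 2 genes used these contrasts, so nothing follows from their place among them.

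Of the 44 genes past 2-fold at 3 h and 4 h, 36 had the larger difference at 3 h, AT1G65690 included. Against the mock array of the other time point, an alternative added after seeing the data, 24 of the 44 did. In leaves, 24 of the 44 differed by less than 0.5 in either direction, a limit chosen after the values of both genes were seen. The share of all genes was computed neither for this limit nor for the order of 3 h and 4 h. In leaves, however, only 577 of the 13356 genes were 1.5-fold or more higher and 581 lower. A small leaf difference was thus the rule among all genes and, at these unlike limits, less frequent among the 44. Genes near the array minimum, which hardly differ, count among all genes. The 5 genes past 2-fold at both 4 h and 6 h were also past 2-fold at 3 h, where YLS9 had 0.30. Probe sets without a listed gene, to which that of YLS9 belongs, were not searched for this course. AT4G39670, of the glycolipid transfer protein family, is an example of the 5 genes, with differences of 3.12, 2.60 and 1.33 at 3, 4 and 6 h against 0.30, 1.62 and 1.53 for YLS9. Of the 5, AT4G39670 had the largest difference at 3 h. In seedlings, AT4G12580 (1.06 at 3 h and 1.19 at 4 h) and AT1G66100 (1.09 and 1.02) passed 2-fold by little. The count of 5 was not repeated with exchanged mock arrays.

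**Figure D2:**
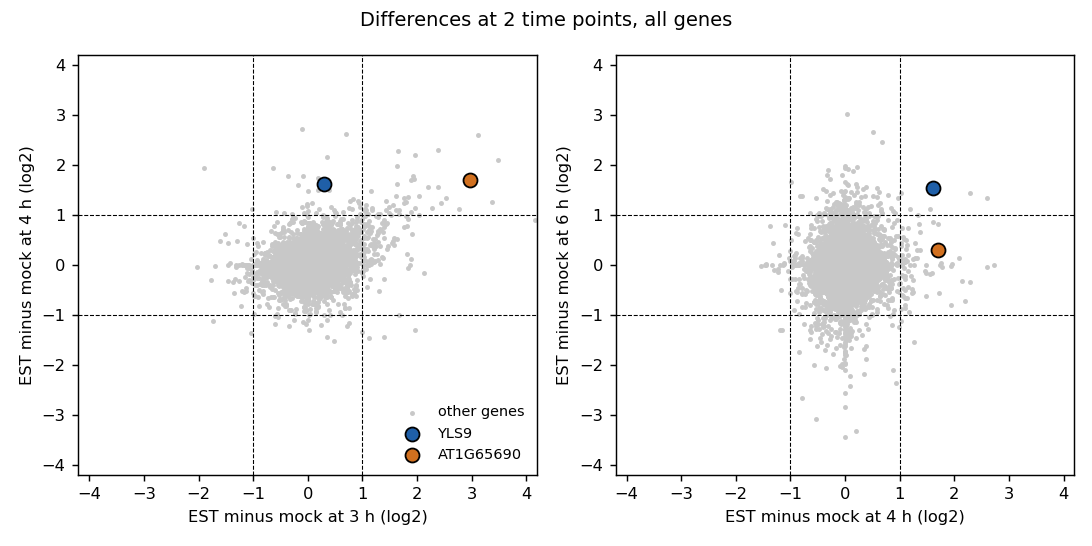
EST minus mock difference (log2) of each of the 13356 genes in grey, at 4 h against 3 h (left) and at 6 h in leaves against 4 h (right), with 2-fold limits as dashed lines. YLS9 (blue) lies at 0.30 and 1.62 on the left and at 1.62 and 1.53 on the right, and AT1G65690 (orange) lies at 2.96 and 1.70 on the left and at 1.70 and 0.29 on the right.

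Because every difference rests on 1 mock array, the seedling differences were also taken against the mock array of the other time point. YLS9 then differed by 0.40 at 3 h and 1.52 at 4 h, close to the values against its own mock. AT1G65690 differed by 2.58 at 3 h and 2.08 at 4 h, so that the gap between the 2 time points shrank from 1.27 to 0.51. Against the mean of both mock arrays the values were 0.35 and 1.57 for YLS9 and 2.77 and 1.89 for AT1G65690. With each choice YLS9 stayed below 2-fold at 3 h and above it at 4 h, and AT1G65690 was above it at both times with the larger difference at 3 h. With exchanged mocks, however, the gap of 0.51 for AT1G65690 was close in size to the yardstick's limits of −0.48 and 0.61. Its order of 3 h and 4 h is then not certain. Leaves had a single mock array, and no such exchange was possible.

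**Figure D3:**
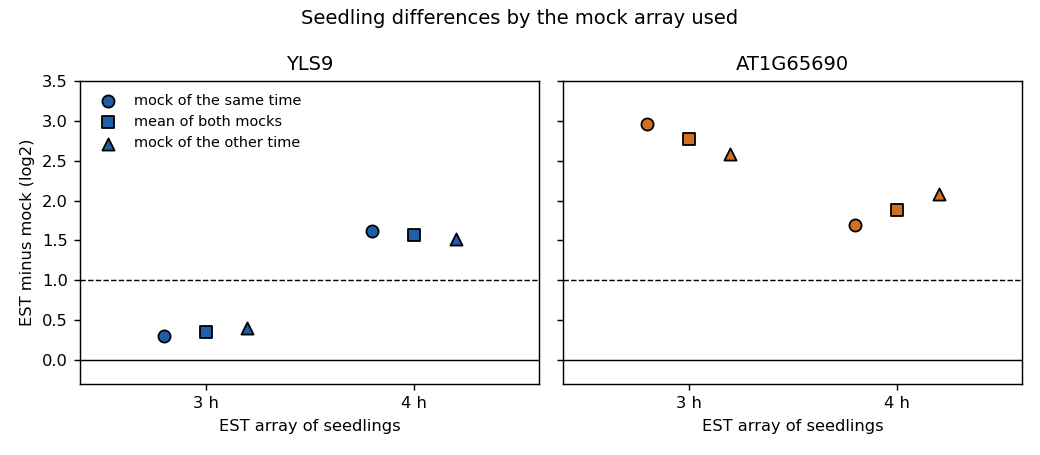
EST minus mock difference (log2) in seedlings at 3 h and 4 h for YLS9 (left) and AT1G65690 (right), against the mock array of the same time (circles), the mean of both mock arrays (squares) and the mock array of the other time (triangles), with 2-fold as a dashed line. The values of YLS9 move by 0.10 at most with the mock used, whereas with exchanged mocks AT1G65690 has 2.58 at 3 h and 2.08 at 4 h.

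The NHL family as listed here has 16 genes, of which 6 had a probe set of their own, YLS9 and AT1G65690 included. The annotation pairs AT2G35970, the neighbour of YLS9, and NHL22 with 1 common probe set, which gave the minimum value throughout, and did not list a probe set for the other 8, among them NDR1, NHL3 and NHL12. Of the 6 measured genes, 1 was at least 2-fold higher at 3 h (AT1G65690), 2 at 4 h (AT1G65690 and YLS9) and 1 at 6 h (YLS9), and 0 were 2-fold lower at any time. Over all genes the shares at least 2-fold higher were 1.13%, 0.614% and 1.02%. Both genes past 2-fold are those chosen for these values, so the count says nothing about the family. The other 4 genes were not past 2-fold at any time point, with medians of 0.00 at all 3 as for all genes.

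AT2G27080 was the only one of these 4 genes with a signal well above the array minimum. Its mock and EST signals were 7.37 and 8.23 (3 h), 7.40 and 8.11 (4 h), and 9.09 and 9.18 (leaves). Its mock arrays of 3 h and 4 h were 0.03 apart, and both EST seedling arrays lay above both mock seedling arrays. Its differences of 0.86, 0.71 and 0.10 were below 2-fold, largest at 3 h and smallest in leaves, the same order as in AT1G65690. The 3 h and 4 h values, 0.83 and 0.74 with exchanged mock arrays, lay within the yardstick of each other, so their order is not resolved. AT1G54540 and AT1G61760 were within 0.05 of the array minimum on all 6 arrays, and AT2G35460 on 5 of 6. In the first 2 of these a decrease could hardly have been seen, and AT2G35460, with 2.34 in mock at 3 h, differed by −0.17 there.

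**Figure D4:**
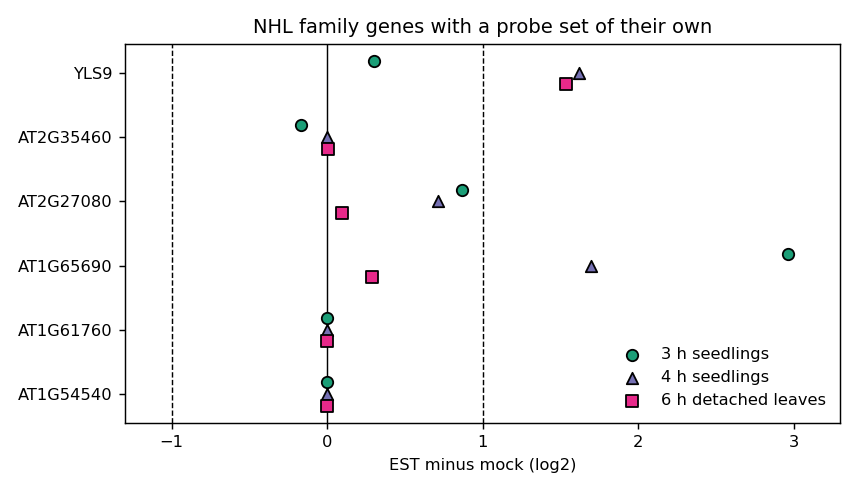
EST minus mock difference (log2, horizontal axis) of the 6 NHL family genes with a probe set of their own, at 3 h (circles), 4 h (triangles) and 6 h (squares), with 2-fold as dashed lines. YLS9 and AT1G65690 pass 2-fold, AT2G27080 reaches 0.86 at 3 h, and the other 3 genes stay at or near 0.

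The gene lists that accompany the known roles of the 2 genes could be followed only in part, since the annotation did not list most of their probe sets. Genes called measured are those with a listed probe set of their own, and others may still be on the array. WRKY40, a flg22 marker without a listed probe set, is named by the paper among the genes regulated in its induced plants. Of 12 markers of the flg22 response, 2 were measured, both WRKY transcription factors of pattern-triggered immunity. WRKY22 had mock and EST signals of 4.63 and 6.18 (3 h), 4.64 and 5.08 (4 h), and 8.49 and 8.25 (leaves), which gives differences of 1.55, 0.43 and −0.24. WRKY53 had differences of 0.98, 0.66 and 0.00. Both had their largest difference at 3 h, but against the mock array of the other time point WRKY53 had 0.61 at 3 h and 1.03 at 4 h. Both had higher signals in mock leaves than on any seedling array. Of these 2 genes, 1 was past 2-fold at 3 h and 0 at 4 h and 6 h, against 1.13%, 0.614% and 1.02% of all genes, and a pair of genes does not describe the list.

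Of 16 genes of leaf ageing, 3 had a listed probe set of their own, and 0 of these 3 were past 2-fold at any time. Over all genes, 1.13%, 0.614% and 1.02% were at least 2-fold higher at 3, 4 and 6 h, and 0.389%, 0.18% and 1.14% lower. So few measured genes do not describe the list. ORE1, which is on it without a listed probe set, is named by the paper among the genes regulated in its induced plants. SAG101, a lipase-like partner of the immune regulator EDS1, differed by 0.76, 0.60 and 0.12 at 3, 4 and 6 h, and YLS5, found in the same screen for yellow-leaf transcripts as YLS9, by −0.05, 0.42 and −0.35. The sugar transporter gene SAG29 differed by 0.99, −0.16 and −0.68, and its leaf signal after EST was at the array minimum. The median leaf difference of the 3 genes was −0.35, the value of YLS5, against 0.00 over all genes. Of 7 genes of wounding and jasmonate only the defensin PDF1.2 was measured, with differences of 0.81, 0.89 and 1.06. Its signal in leaves, 3.11 in mock and 4.18 after EST, was far below that in seedlings, 9.72 to 10.6, the reverse of YLS9. No gene of the lists for salicylic acid defence (14 genes) and for ABA and osmotic stress (12 genes) had a listed probe set of its own.

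On the chromosome, the 2 nearest genes with a listed probe set of their own on each side of either gene were also followed. Of these 8, 4 were near the array minimum throughout. On the lower side of YLS9 the nearest was PUB23, a U-box ubiquitin ligase gene 25933 bp away with 7 annotated genes between. Its differences were 1.04 (3 h), 1.11 (4 h) and −0.86 (leaves), where YLS9 had 0.30, 1.62 and 1.53. The next, AT2G35920, differed by 0.31, −0.12 and −0.11. On the higher side AT2G36030 and AT2G36040 were near the array minimum on all arrays. Beside AT1G65690, the expansin gene EXPB2 (2744 bp away) and UCL1 were near the minimum on all arrays, AT1G65720 (6487 bp away) differed by −0.08, −0.05 and −0.19 from mock signals of 10.3 to 11.5, and FRA3 by −0.05, 0.39 and −0.25.

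The genes whose signals followed those of AT1G65690 most closely over the 6 arrays were AT4G20860, AT1G19020, UGT76B1, AT1G30700 and AT2G36220. Likeness was measured as the distance between the 6 signals after the mean of each gene was subtracted, which was 0.93 for AT4G20860 and 1.25 for AT2G36220, the first and the last of these. AT4G20860 and AT1G30700 encode FAD-binding berberine family proteins, and UGT76B1 a UDP-glycosyltransferase. AT4G20860 had signals of 8.12 and 10.3 at 3 h, 7.80 and 9.35 at 4 h, and 10.9 and 10.7 in leaves, for mock and EST respectively. AT1G30700 had 3.63 and 7.10, then 3.26 and 5.36, then 7.66 and 7.80. All 5 genes had their largest difference at 3 h (1.61 to 3.48) and their smallest in leaves (−0.18 to 0.82), and all 5 had higher signals in mock leaves than on either mock seedling array. Because the 5 were chosen for likeness to the 6 signals of AT1G65690, this shared course follows largely from the choice and is no separate result. Against the mock array of the other time point, 2 of the 5 (AT4G20860 and AT1G30700) had the larger difference at 3 h.

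The 5 genes nearest to YLS9 were AT5G02160, AT5G11840, AT1G75460, AT1G67330 and AT1G55265, at distances of 1.07 to 1.16. They shared with YLS9 the high leaf signals rather than the size of its responses. AT5G02160 had mock and EST signals of 8.11 and 7.59 (3 h), 7.83 and 8.39 (4 h), and 10.5 and 11.5 (leaves). Its leaf difference of 0.97 was the largest of the 5, against 1.53 for YLS9, and at 4 h AT1G67330 and AT1G55265 were past 2-fold with 1.28 and 1.06. YLS9 and AT1G65690 themselves lay 2.34 apart. All of these likenesses rest on 6 signals of which 2 are from leaves, and the difference between tissues is a large part of them. What the nearest genes share with YLS9 or AT1G65690 follows largely from how they were chosen.

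**Figure D5:**
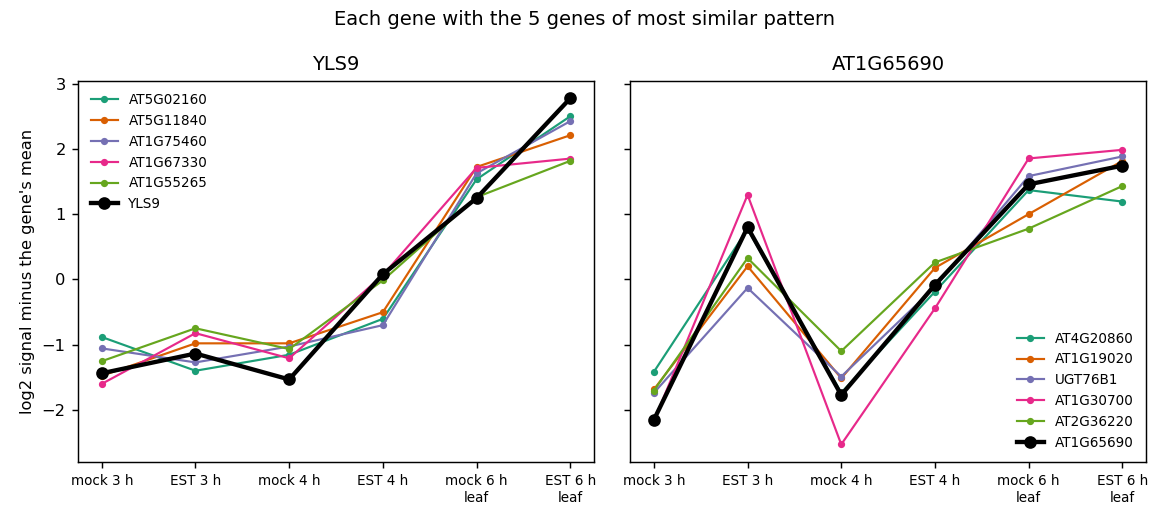
Log2 signal minus the mean of the gene (vertical axis) on the 6 arrays (horizontal axis) for YLS9 (left) and AT1G65690 (right) in black, each with its 5 nearest genes in colour. The genes beside AT1G65690 lie above mock on both EST seedling arrays and highest in leaves, while those beside YLS9 share its high leaf signals but end below it on the EST leaf array. The coloured genes were chosen for this likeness.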

How the data were processed

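The study hybridised total RNA of GRF9-IOE plants to Affymetrix ATH1 arrays, 1 for each of 6 conditions. The deposited values are log2 signals for 22810 probe sets, which the authors normalized with GCRMA (version not stated). They were used as deposited. Of 22746 probe sets other than controls, the array's annotation pairs 13513 with exactly 1 gene, 503 with several and lists none for 8730. Keeping the probe set of highest mean signal left 13356 genes. YLS9 is not among these and was added through its probe set.

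EST minus mock differences were taken at each time point, as in the methods, and a log2 difference of at least 1 was counted as 2-fold. The limma fit over time points that the methods also describe was not run, since the 2 genes were chosen on that contrast. Columns of the authors' supplementary fold changes served only to identify the probe set of YLS9. The precision is limited by the number of arrays.

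The NHL family list holds genes whose symbol or synonym names NDR1 or NHL, together with 15 loci listed by hand, some of which also carry such a name. Named genes were both genes studied, up to 6 genes past 2-fold per list, the 2 nearest measured neighbours on each side, and the 5 genes of smallest distance. The other genes of short lists, and AT4G39670, AT4G12580 and AT1G66100, were named after their values were seen. The genes and lists were chosen with earlier results of these data known. Promoter and protein sequences were not analysed here. Calculations used Python 3.11.15, numpy 2.4.6 and pandas 2.3.3, were tested on simulated data, and figures were drawn with matplotlib 3.10.9. Alternatives were quantile normalization, subtraction of array medians, exchanged or averaged mock seedling arrays, thresholds of 1.5-fold and 3-fold, a filter at a log2 signal of 6, all probe sets, and Pearson's r for likeness.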

Additional observations from a re-analysis of the deposited data

Results flagged for a closer look

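Of 22 genes that the rule for named genes selects, 3 had EST minus mock differences that were positive in both seedling pairs and negative in leaves, and were at least 2-fold changed at some time point. WRKY22 had 1.55 and 0.43 in seedlings and −0.24 in leaves. PUB23 had 1.04 and 1.11 against −0.86, and AT4G20860 had 2.20 and 1.56 against −0.18. The share of all genes with this pattern was not computed, and the 22 include genes selected for passing 2-fold or for likeness to YLS9 or AT1G65690. Whether 3 of 22 is many can therefore not be said. With 1 array for each condition the difference between seedlings and leaves was not tested, and the leaf values of WRKY22 and AT4G20860 are small. YLS9 and AT1G65690 had positive differences at all 3 time points.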

How the results depend on the processing

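All 20 alternative values of the EST minus mock differences of YLS9 and AT1G65690 were positive and on the same side of 2-fold as the reported ones. Those that moved by more than 0.25 were 2.58 at 3 h and 2.08 at 4 h for AT1G65690 with exchanged mock arrays. The limit of 0.25 is the SD of the differences between the mock seedling arrays over all genes, those near the array minimum included. The excess of AT1G65690 in mock leaves was 3.24 when taken over the 4 h mock array. Quantile normalization and subtraction of array medians moved neither gene by as much.

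The counts of genes past the threshold depended on it by construction. With 1.5-fold, 492, 302 and 577 genes were higher at 3, 4 and 6 h and 274, 144 and 581 lower, and with 3-fold 45, 19 and 17 were higher and 6, 0 and 39 lower. Over all probe sets the counts were 288, 163 and 282 higher and 97, 43 and 278 lower. With a filter at a log2 signal of 6, 38 genes were higher at 4 h and 59 at 6 h, and 20, 9 and 78 were lower. With exchanged mock arrays, 90 genes were higher at 3 h and 165 at 4 h, and 49 were lower at 4 h. The cause of these shifts was not tested. In the NHL family, 2 genes were higher at 3 h with 1.5-fold, 0 at 6 h with 3-fold, and 1 at 4 h with the filter, which removes YLS9. By Pearson's r in place of distance, 0 of the 5 genes nearest to YLS9 and 2 of those nearest to AT1G65690 were shared. A fit over the 3 EST and mock pairs, with time point as a block, was not run because both genes were chosen on that contrast, and the labels give no replicate numbers. With 1 array for each condition, leaving one out removes its comparison. Signals near the array minimum limit what can be seen of YLS9 in seedlings.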
